A study of Mus musculus with 4 samples.

Results

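The genes described here encode the proteins of the cytosolic ribosome, measured by RNA-seq in quiescent follicular B cells. They were chosen by symbol: every gene whose symbol starts with Rpl or Rps followed by a digit, apart from the Rps6 kinases, together with Rplp0, Rplp1, Rplp2 and Rpsa. This rule found 91 of the 23305 genes, 54 with Rpl and 37 with Rps symbols. It used no expression values. Of the 91 members, 77 encode the standard ribosomal proteins (46 of the large and 31 of the small subunit) and are called core members below. A further 5 carry a pseudogene symbol (-ps), 8 are paralogs of a core member, and Rps19bp1 is a binding partner of Rps19 and not a ribosomal protein.

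There were 2 WT and 2 Ets1-/- libraries from spleens of female mice, and the genotypes were compared to learn which genes depend on Ets1, a transcription factor of the Ets family that restrains B cell differentiation. By the labels the WT strain was C57BL/6 and the Ets1-/- strain C57BL/6 x 129Sv, so genotype and strain cannot be told apart. The mutation is carried by all cells of the mouse and not by B cells alone. Cells of both genotypes were sorted as B220+, high for CD23, low for CD21 and negative for CD80 and for switched immunoglobulin isotypes. Nothing says whether a library came from 1 mouse or several, so the p-values measure only the spread between these libraries.

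Ribosomal proteins assemble with ribosomal RNA into a small subunit, which reads the mRNA, and a large subunit, which joins the amino acids. Most of the core proteins are needed in about equal numbers per ribosome. The mRNAs of most begin with a run of pyrimidines (a 5' terminal oligopyrimidine, or TOP, start) through which mTOR controls their translation together. Resting lymphocytes keep large stores of these mRNAs. Mammalian genomes also hold many processed copies of ribosomal protein genes, made from their mRNAs and near-identical to them in sequence.

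Such copies matter for the values below, because a read from a gene and a read from its copy often cannot be told apart. The coding sequences of 76 core members were searched against the mm9 genome. At an identity of at least 95% over at least 95% of the coding sequence, 73 of the 76 had at least 1 copy outside their own locus, and the median was 6 copies. At 99% identity 54 members had a copy, and at 100% identity 20 had one. The levels of such members are uncertain by whatever share of reads was assigned to the copy. Rpl34 and its copy Rpl34-ps1 are shown because the files place almost all of the family's signal on the copy. They differ at 2 positions, T132C and C318G, counted from the A of the start codon with the base of Rpl34 first. The stretches lie at chr3:130431985-130432044 (minus strand, in a coding exon of Rpl34) and chr6:71074693-71074752 (plus strand) of mm9, read 5' to 3', with the differing base in capitals.
Rpl34: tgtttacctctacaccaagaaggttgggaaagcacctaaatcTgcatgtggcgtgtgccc
Rpl34-ps1: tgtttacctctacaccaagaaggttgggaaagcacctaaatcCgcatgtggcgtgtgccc

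Rps15a and its 2 listed copies are shown because 1 copy gave the member with the largest fold change. Rps15a-ps6 differs from Rps15a at 5 positions of the coding sequence and Rps15a-ps4 at 10. The stretch shown runs from coding position 301 to 360 and holds T301C of Rps15a-ps6 and C320A, T330C and G334A of Rps15a-ps4. It lies in mm9, on the minus strand in each case, at chr7:125252647-125252706 in a coding exon of Rps15a, at chr4:131775993-131776052 and at chr11:6072680-6072739. Capitals mark the positions at which any of the 3 differ.
Rps15a: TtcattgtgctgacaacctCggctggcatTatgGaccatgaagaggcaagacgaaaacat
Rps15a-ps4: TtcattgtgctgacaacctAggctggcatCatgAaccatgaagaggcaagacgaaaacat
Rps15a-ps6: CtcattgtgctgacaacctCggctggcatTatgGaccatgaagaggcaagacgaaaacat

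Values are FPKM, in which the fragments of a gene are divided by its transcript length and by the mapped reads of the library, so that levels can be compared between genes. Levels of 87 members passed the filter used for testing, a mean of at least 1 FPKM in either genotype, which 10949 of all genes passed. The 4 that did not were Rpl10l, Rpl3l, Rpl39l and Rpl31-ps12. Ets1 itself stood at 231.2 and 274.8 FPKM in the WT and 228.6 and 229.8 FPKM in the Ets1-/- libraries. Both Ets1-/- values lay below both WT values, but only just below that of WT replicate 1. A value over the whole gene does not show which exons remain and checks no label, and WT and Ets1-/- here mean the libraries labelled so. Judged from the lowest FPKM values, the libraries had relative depths of 1 and 1.75 (WT replicates 1 and 2) and 1.67 and 0.876 (Ets1-/- replicates 1 and 2). Markers of B cells were present in every library. Cd79a stood at 1923 and 2051 FPKM in WT and 1407 and 1639 FPKM in Ets1-/-, lower without overlap, and Cd22 at 505 and 431 FPKM in WT and 382 and 436 FPKM in Ets1-/-. The means of Cd79b, Fcer2a and Ms4a1 were also lower in Ets1-/-, with overlap for each, and none of these 5 passed the thresholds. The 8 neutrophil markers summed to 111 and 92.3 FPKM in WT but 2555 and 699 FPKM in Ets1-/-, all 8 were higher in Ets1-/- and 3 passed both thresholds given below. The erythroid markers summed to 6.22 and 4.84 FPKM in WT and 87.9 and 27.6 FPKM in Ets1-/-, and 0 of the 4 tested passed. The macrophage markers summed to 52.6 and 26.7 FPKM in WT and 134 and 87.8 FPKM in Ets1-/-, and 1 of 4 passed. Only 2 of these 4, Lyz2 and Emr1, had a higher mean in Ets1-/-, while the means of Csf1r and Cd68 were lower. The part of these cells in any result below was not tested. In bulk samples fewer cells of a type and less RNA per cell cannot be told apart.

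Ribosomal protein mRNAs held a large part of all FPKM in these resting cells. The 91 members took 23.1% and 26.5% of the summed FPKM in the WT libraries and 27.9% and 28.5% in the Ets1-/- libraries. The WT mean was 24.8% ± 2.43 (SD, n = 2), and the Ets1-/- mean was 28.2% ± 0.436 (SD, n = 2). Both Ets1-/- shares lay above both WT shares, but the difference from the nearer WT library was smaller than the difference between the WT libraries. An exact permutation test of 2 against 2 libraries cannot give a two-sided p below 0.333, so none was made. Members with Rpl symbols took 12.6%, 14.4%, 15.2% and 15.5%, in the order WT replicate 1, WT replicate 2, Ets1-/- replicate 1 and Ets1-/- replicate 2, which is kept throughout. Members with Rps symbols took 10.6%, 12.1% and 12.7% in the first 3 of these and their highest share in Ets1-/- replicate 2, so the libraries ranked alike for both subunits.

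**Figure D1:**
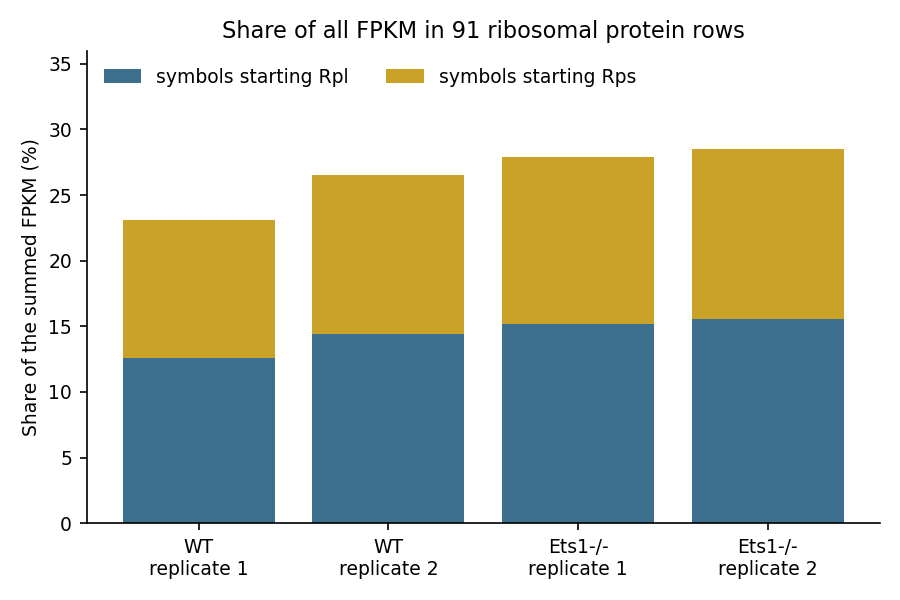
Share of the summed FPKM of each library (y axis, in percent) held by the 91 ribosomal protein rows, split by symbol into large (Rpl) and small (Rps) subunit names, 1 bar per library. The bars reach 23.1%, 26.5%, 27.9% and 28.5%, WT replicate 1 being the lowest.

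Within a library the core members were not level. Between 65 and 68 of the 77 exceeded 1000 FPKM, and the median core member stood at 2209, 2790, 3035 and 3048 FPKM. Yet the highest core member exceeded the lowest by 408, 342, 384 and 456 times. Between 56 and 62 members were among the 100 highest of all genes in each library. The order of core members was nearly the same in both genotypes (Spearman's rho 0.99 between the WT and Ets1-/- means across 77 genes, which share libraries, gene lengths and annotation and are not independent replicates).

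**Figure D2:**
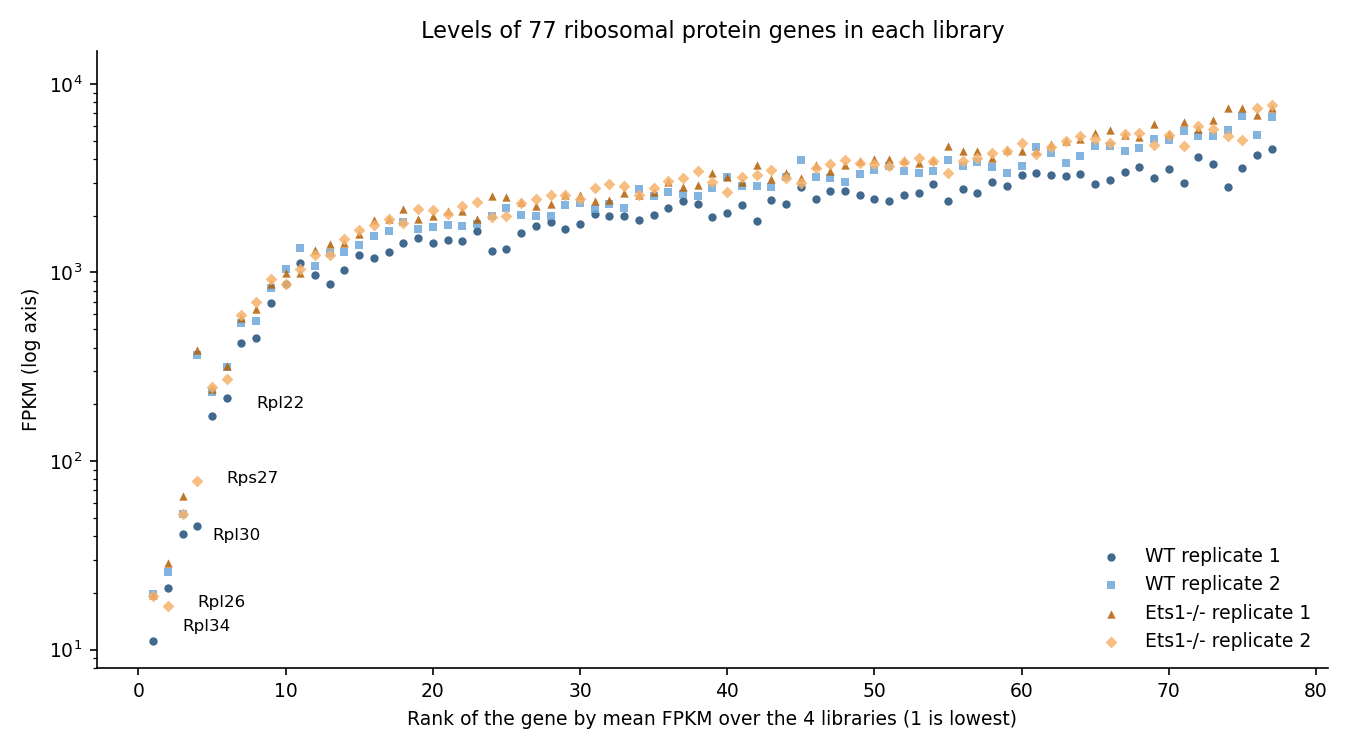
FPKM on a log axis (y) of each of the 77 core members, ranked by mean FPKM over the 4 libraries (x), with 1 point per library. Most genes form a shelf above 1000 FPKM, on which WT replicate 1 is usually the lowest point, and 4 genes (Rpl34, Rpl26, Rpl30 and Rps27) fall under 100 FPKM in at least 1 library.

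The 5 highest core members were 1 protein of the stalk, 1 other of the large subunit and 3 of the small subunit. Rplp1, an acidic protein of the stalk that recruits elongation factors, stood at 4540, 6688, 7440 and 7751 FPKM. Rps12, a protein of the head of the small subunit, stood at 4216, 5347, 6868 and 7466 FPKM. In both genes the 2 Ets1-/- libraries lay above the 2 WT libraries. Rps29, a small zinc-binding protein, gave 3590, 6726, 7426 and 5017 FPKM. Rpl39, a very short protein that lines the exit tunnel, gave 2856, 5698, 7488 and 5274 FPKM, and Rps20 gave 3760, 5291, 6437 and 5762 FPKM. For Rps29 and Rpl39 the genotypes overlapped, while for Rps20 they did not.

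As many as 4 core members fell under 100 FPKM in at least 1 library, although their proteins belong to every ribosome. Rpl34 was listed at 11.1, 19.7, 19.5 and 19.2 FPKM, while Rpl34-ps1 was listed at 2835, 4436, 5398 and 4348 FPKM, which is a usual level for a core member. The copy held between 99.56% and 99.64% of the summed FPKM of the pair in every library. Rpl26 stood at 21.1, 25.8, 29.0 and 17.0 FPKM and Rpl30 at 41.0, 52.6, 65.6 and 52.1 FPKM, both proteins of the large subunit. Rps27, a zinc-finger protein of the small subunit, was listed at 45.2, 363, 386 and 78.5 FPKM. It was thus high in the second WT and the first Ets1-/- library and low in the other two, and the division did not follow genotype. A copy of Rps27 with 100% identity lies elsewhere in mm9, as it does for 20 of the 76 core members searched. Among these 20 are Rps12 and Rps29, which were listed at far higher levels. Rpl26, Rpl30 and Rpl34 had no copy at 100%, but had 1, 5 and 1 copies at an identity of at least 99%. The part of copies in these values was not tested.

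Rows listed at 0 were few. Rpl10l, an intron-lacking relative of Rpl10 known from testis, was listed at 0 in all 4 libraries. Rpl3l, the form of Rpl3 known from muscle, was listed at 0 in WT replicate 1 and at 0.0458, 0.150 and 0.0642 FPKM in the others. Rpl39l, known from testis, ranged from 0.421 to 0.535 FPKM. With no read counts in the files, a row is described only as listed at 0.

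No ribosomal protein gene passed the thresholds for a change between the genotypes. With limma and Benjamini-Hochberg adjustment, a gene was called where its log2 fold change was 1 or more in size at an adjusted p no higher than 0.05. This held for 186 of 10949 genes (1.7%), 96 of them higher (0.877%) and 90 lower (0.822%) in Ets1-/-, and for 0 of the 87 tested members in either direction. At an unadjusted p under 0.05, which 13.3% of all tested genes reached, 0 members were found by limma, the tool used here. The mean level was nevertheless higher in Ets1-/- for 81 of the 87 members, and for 73 of the 77 core members, against 46.9% of all tested genes. The median log2 fold change (Ets1-/- minus WT) was 0.35 for the tested members and 0.36 for the core members, beside -0.02 for all tested genes. These groups differ in level, with a median mean FPKM of 2508 for the tested members and 14.0 for all tested genes. A set of other genes matched for level was not compared. As a ratio of mean FPKM (Ets1-/- over WT), the median core member gave 1.27 and the lowest, Rpl29, 0.818.

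The size of this shared difference rested on WT replicate 1. Without it the median log2 fold change of the members was 0.18, and without WT replicate 2 it was 0.52, with 24 of 87 members (27.6%) at an unadjusted p under 0.05 beside 8.23% of all genes tested in that fit. WT replicate 1 was the lowest of the 4 libraries for 79 of the 87 members, against 20.6% of all tested genes. Both Ets1-/- libraries lay above both WT libraries for 57 members (19.4% of all tested genes did), both lay above WT replicate 2 alone for 57 members (27.1%), and both lay above WT replicate 1 alone for 80 members (29.8%). With Ets1-/- replicate 1 left out, which had the most neutrophil marker RNA, Ets1-/- replicate 2 lay above both WT libraries for 60 members (41.4%). Quantile normalization, which gives every library the same set of values, left a median of 0.09. Between 56 and 62 members were among the 100 highest genes of each library. Equal values at the top therefore remove much of any shift that the members share, so the 0.09 does not measure it. The 95% confidence interval included 0 for all 87 tested members, and for 41 of them it lay wholly between -1 and 1, so that a 2-fold difference lay outside the interval.

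**Figure D3:**
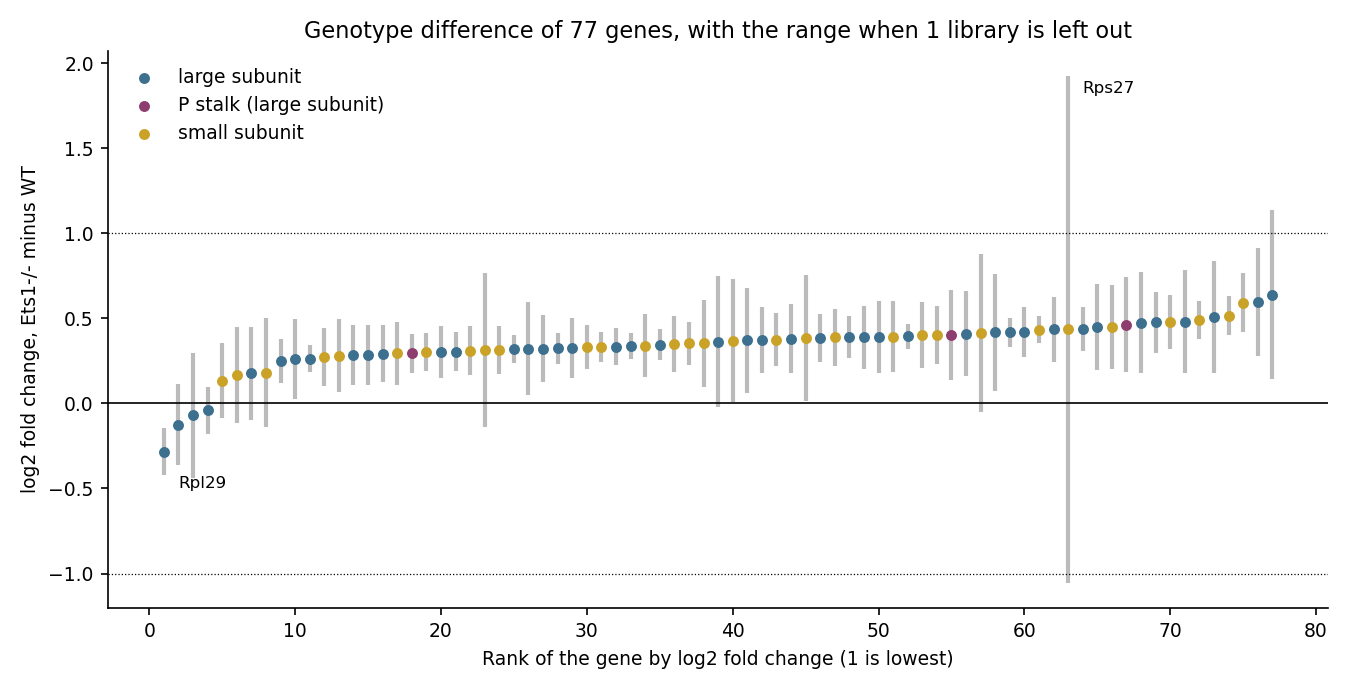
The log2 fold change (y axis, Ets1-/- minus WT, on the log2(FPKM + 1) scale) of the 77 core members in rank order (x axis), coloured by subunit, with grey bars for the lowest and highest value when 1 library is left out. Dotted lines mark a 2-fold change; 73 points lie above 0, and the bar of Rps27 spans -1.05 to 1.92.

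The subunits did not stand apart from each other. Core members of the large subunit had a median log2 fold change of 0.37 (range -0.28 to 0.64, 42 of 46 above 0) and those of the small subunit 0.35 (range 0.13 to 0.59, 31 of 31 above 0). The stalk proteins gave similar values. Rplp0, the scaffold of the stalk, stood at 2049, 2175, 2394 and 2802 FPKM, with a log2 fold change of 0.30 ± 0.24 (SE). Rplp2 stood at 2652, 3838, 4397 and 4047 FPKM with 0.40 ± 0.30 (SE), and Rplp1 gave 0.46 ± 0.33 (SE). Rpsa, the small-subunit protein also known as the laminin receptor, stood at 1755, 1984, 2245 and 2458 FPKM with 0.33 ± 0.23 (SE). In each of these 4 genes the Ets1-/- libraries lay above the WT libraries.

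A few further core members, chosen after their values were seen, are known for roles beside translation. Rpl5 and Rpl11, which bind Mdm2 together with 5S RNA when assembly fails, stood at 964, 1085, 1315 and 1240 FPKM and at 2570, 3445, 3945 and 3854 FPKM. Rps6, the small-subunit protein phosphorylated downstream of mTOR, stood at 1627, 2015, 2355 and 2344 FPKM, and Rps3, which also has roles in DNA repair, at 1026, 1291, 1428 and 1506 FPKM. In these 4 genes both Ets1-/- libraries were above both WT libraries. Rps19, the protein most often mutated in Diamond-Blackfan anaemia, stood at 2070, 3228, 3193 and 2688 FPKM, and its genotypes overlapped. The log2 fold changes of the 5 genes lay between 0.18 ± 0.32 (SE) for Rps19 and 0.39 ± 0.28 (SE) for Rpl11.

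Among core members, Rpl39, Rpl36 and Rps12 had the largest positive values. Rpl36 stood at 1866, 2892, 3722 and 3308 FPKM, with a log2 fold change of 0.59 ± 0.31 (SE). Rps12 gave 0.59 ± 0.30 (SE) and Rpl39 0.64 ± 0.44 (SE). The 95% confidence intervals ran from -0.21 to 1.40 for Rpl36, from -0.18 to 1.36 for Rps12 and from -0.49 to 1.77 for Rpl39, so none was separated from 0. The adjusted p values (limma, Benjamini-Hochberg) were 0.547, 0.530 and 0.670.

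A lower mean in Ets1-/-, which 53.1% of all tested genes had, was found for 6 tested members, namely Rpl29, Rpl13a, Rps4y2, Rpl26, Rps19bp1 and Rpl21. Rpl29, a large-subunit protein that also binds heparin, was the only tested member with both Ets1-/- libraries below both WT libraries, a pattern seen in 22.2% of all tested genes. It stood at 1123, 1356, 991 and 1038 FPKM, a log2 fold change of -0.28 ± 0.21 (SE, adjusted p = 0.711 by limma with Benjamini-Hochberg adjustment). Its sign was the same whichever library was left out, with values from -0.42 to -0.15. Rpl29 has 18 copies in mm9 at 95% identity. Rpl13a, which also takes part in translational silencing in myeloid cells, stood at 2835, 3936, 3153 and 2974 FPKM, and its genotypes overlapped. Without WT replicate 2 its log2 fold change turned from -0.13 to 0.11.

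Among the paralog pairs, the share of Rpl22l1 in its pair with Rpl22 differed most between the genotype means, in percentage points. Rpl22 is an RNA-binding protein of the large subunit with a known role in lymphocyte development, and Rpl22l1 is the related protein that can take its place. Rpl22l1 stood at 177, 378, 576 and 413 FPKM, and both Ets1-/- libraries lay above both WT libraries. Its log2 fold change of 0.91 ± 0.41 (SE, 95% confidence interval -0.12 to 1.95) had the smallest unadjusted p of any member, 0.0734, with an adjusted p of 0.443 (limma, Benjamini-Hochberg), and the fold change ranged from 0.37 to 1.46 when single libraries were left out. Over the alternative fits the adjusted p (limma, Benjamini-Hochberg) ran from 0.0386, with WT replicate 1 blocked with Ets1-/- replicate 2 and WT replicate 2 with Ets1-/- replicate 1 (a pairing chosen after seeing the data, and the 1 alternative under 0.05), to 1.00 without WT replicate 1. Rpl22 stood at 215, 315, 318 and 273 FPKM, with overlap between genotypes and a log2 fold change of 0.18 ± 0.24 (SE). Rpl22l1 therefore made up 45.1% and 54.5% of the pair's FPKM in WT and 64.4% and 60.2% in Ets1-/-. The step between the nearest libraries of the 2 genotypes was smaller than the difference between the WT libraries, and Rpl22l1 has 1 genomic copy at 99% identity.

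The Rps27 pair changed balance between replicates instead. Rps27l, a stress-inducible relative of Rps27, stood at 53.6, 66.3, 64.5 and 65.6 FPKM, close to level. As Rps27 itself varied 8.03-fold between the WT libraries and 4.92-fold between the Ets1-/- libraries, its share of the pair was 45.8%, 84.6%, 85.7% and 54.5%. The log2 fold change of Rps27 was 0.44 ± 1.18 (SE), and it turned to -1.05 without WT replicate 1 and -0.71 without Ets1-/- replicate 1.

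In the other pairs the core gene held most of the FPKM in every library. Rpl36al, which differs little from Rpl36a, held 26.8%, 25.2%, 22.4% and 23.3% of its pair's FPKM. Rpl36a stood at 1302, 1986, 2554 and 1973 FPKM and Rpl36al at 477, 670, 739 and 599 FPKM, both lowest in WT replicate 1. The share of Rpl36al was lower in both Ets1-/- libraries than in both WT libraries. Rpl7l1, which is a relative of Rpl7 involved in ribosome assembly, held between 1.45% and 1.64%. Rps4y2 (Rps4l in RefSeq) held between 0.119% and 0.246% of its pair with Rps4x, an X-linked protein of the small subunit. Rps4x stood at 3264, 3810, 4966 and 4952 FPKM, with both Ets1-/- libraries above both WT libraries and a log2 fold change of 0.49 ± 0.27 (SE).

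Of the rows with -ps symbols, Rps15a-ps6 varied most between the Ets1-/- replicates. It was listed at 2.65, 2.72, 33.2 and 1.82 FPKM, so that Ets1-/- replicate 1 alone was high. Its log2 fold change was 1.41 ± 1.14 (SE, adjusted p = 0.736 by limma with Benjamini-Hochberg adjustment), it was -0.39 without Ets1-/- replicate 1, and it was 3.22 without Ets1-/- replicate 2, where it passed the thresholds with an adjusted p of 0.0152. Rps15a-ps4 stood at 36.3, 22.9, 21.0 and 50.5 FPKM, the reverse of the Rps27 pattern, with the deeper libraries low. Rps15a itself stood at 173, 232, 240 and 248 FPKM and held 81.6%, 90.1%, 81.5% and 82.5% of the 3 rows. Rps19-ps3 stood at 2.75, 4.58, 7.86 and 3.86 FPKM.

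**Figure D4:**
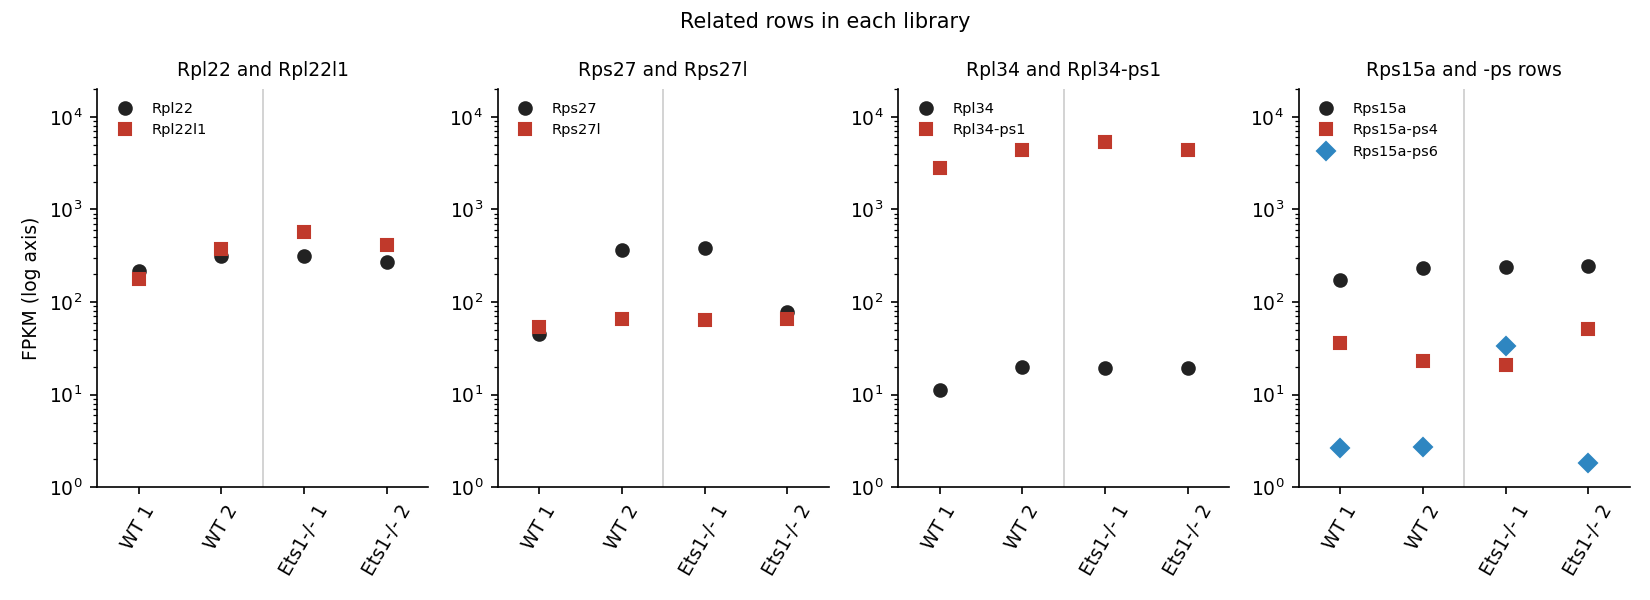
FPKM on a log axis (y) of related rows in the 4 libraries (x), with WT to the left of the grey line and Ets1-/- to the right. Rpl22l1 lies above Rpl22 in all libraries but WT replicate 1, Rps27 is high in WT replicate 2 and Ets1-/- replicate 1, Rpl34-ps1 exceeds Rpl34 in every library, and Rps15a-ps6 is high in Ets1-/- replicate 1.

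The difference between replicates followed gene length. All 77 core members were higher in WT replicate 2 than in WT replicate 1, by between 1.06 and 8.03 times. In Ets1-/-, 42 were higher and 35 lower in replicate 1 than in replicate 2. Across 76 core members with a coding length, Spearman's rho with that length was -0.72 for the log2 difference WT replicate 2 minus WT replicate 1 and -0.62 for Ets1-/- replicate 1 minus Ets1-/- replicate 2. These correlations describe genes within the same libraries, which share depth and base composition, and carry no p. The genotype difference followed length much less (rho -0.15).

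The shortest genes differed most between replicates. Core members with under 300 coding bases (8 genes, among them Rpl39, Rps29 and Rps27) had a median log2 difference of 0.80 for the WT pair (replicate 2 minus 1) and 0.40 for the Ets1-/- pair (replicate 1 minus 2). Those with at least 300 but under 600 bases (46 genes) had 0.39 and 0.04, and those with 600 or more (22 genes) had 0.22 and -0.09. Among tested genes outside the members, 252 with under 300 coding bases had medians of 0.21 and 0.03, and those with 600 or more had -0.02 and -0.06. In each genotype the library with the higher values of short members was the deeper of the 2, and the part of depth in this was not tested.

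**Figure D5:**
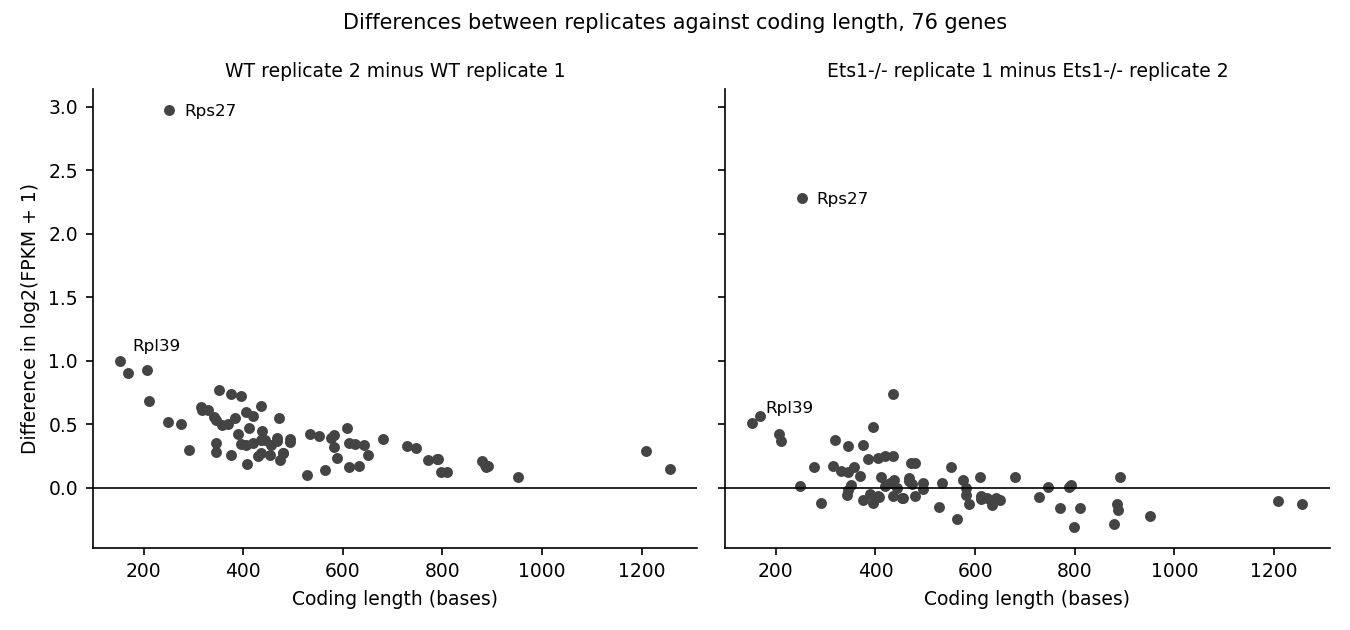
Difference in log2(FPKM + 1) between the replicates of each genotype (y axis) against coding length in bases (x axis) for 76 core members, with WT on the left and Ets1-/- on the right. The differences are largest for the shortest genes, reach their maximum at Rps27 in both panels and lie near or under 0 in Ets1-/- for the longest genes.

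Other genes of translation were compared by lists of known genes. Fau, which encodes a small-subunit protein fused to a ubiquitin-like protein, and Gnb2l1, which encodes the small-subunit protein Rack1, fall outside the symbol rule. Fau stood at 3618, 4586, 5361 and 5749 FPKM (log2 fold change 0.45) and Gnb2l1 at 1868, 1960, 2201 and 2722 FPKM (log2 fold change 0.36). In both genes the Ets1-/- libraries lay above the WT libraries, and neither passed the thresholds. Of 16 translation factors and other genes with TOP mRNAs 0 passed, 15 had a higher mean in Ets1-/- and the median was 0.30. The smallest p in that list was that of Nap1l1, a histone chaperone with a TOP mRNA, at 341, 387, 592 and 583 FPKM and a log2 fold change of 0.69. Genes that make ribosomes gave medians nearer 0. Of 43 assembly factors 0 passed and 21 had a higher mean, with a median of -0.01, and of 12 tested genes of the RNA polymerase I machinery 0 passed and 6 were higher, with a median of 0.01. The 8 snoRNA host genes had a median of 0.06 and the 14 genes that control TOP mRNA translation -0.05, with 0 passing in either list. Mitochondrial ribosomal proteins, which form a separate ribosome, gave 0 passing of 76 tested, 42 higher and a median of 0.03. Whether the lists differ from one another was not tested.

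Promoters are of interest because Ets1 and its relatives bind DNA at a GGAA core. RefSeq promoters (GRCm38.p6, from 250 bases before to 50 after the annotated start) were matched for 57 of the 77 core members. The letters CCGGAAG, searched on both strands, were found in 24 of these (42.1%) and in 9.93% of all 27025 promoter genes. This background was not limited to the tested genes, and the share among those was not counted. The log2 fold change had a median of 0.39 in the core members with the letters (range -0.07 to 0.64) and 0.35 in the 33 without (range -0.13 to 0.59), so the groups overlapped widely. A match describes letters and is no evidence of binding. The 6 core members in which the letters begin between 60 and 20 bases before the start are shown, with the letters in capitals. They lie at chr11:98026660-98026688 (plus strand), chr15:5116579-5116607 (plus), chr11:114668549-114668577 (plus), chr10:128549207-128549235 (minus), chr17:27635256-27635284 (minus) and chr2:180257342-180257370 (plus) of GRCm38.p6, in the order printed.
Rpl19: acttagcgtgaCTTCCGGctacccagagg
Rpl37: accaagacccgCCGGAAGtagtttcctgg
Rpl38: gggttaaccgtCCGGAAGcggaagcctcg
Rpl41: tagtaaggcagCCGGAAGtcgctgtctcg
Rps10: agccgcgcagcCCGGAAGagacgctgcgc
Rps21: agtaccctgacCCGGAAGcacttaccgag

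Of these 6 genes, Rpl37 had the smallest unadjusted p of any core member. It stood at 449, 550, 636 and 693 FPKM, a log2 fold change of 0.42 ± 0.20 (SE, adjusted p = 0.485 by limma with Benjamini-Hochberg adjustment). In Rpl38, by contrast, the genotypes overlapped at 3169, 5099, 6105 and 4720 FPKM.

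The pyrimidine run of a TOP start was also searched, as a C at the annotated start followed by at least 4 letters that were each C or T. It was found in 13 of the 57 core promoters (22.8%) and in 3.01% of all promoters, again not limited to the tested genes. The annotated start can lie a few bases from the start in use. The core members with the run had a median log2 fold change of 0.39 and those without it 0.36. Rps27 and Rplp2 are shown with the run in capitals, which begins at the annotated start, at chr3:90213631-90213658 (minus strand) and chr7:141447641-141447668 (plus strand) of GRCm38.p6.
Rps27: cgctttcgctCCTTTCCggcggtgacga
Rplp2: cagcgtcttcCTTTCgccgccggacgcc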

How the data were processed

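RNA of sorted follicular B cells was sequenced in 2 WT and 2 Ets1-/- libraries (TruSeq). Per the labels, the authors aligned reads to mm9 with TopHat2 2.0.13 and ran Cuffdiff. They deposited 1 FPKM value per gene symbol and library; the gene annotation, read counts and strand setting are not given in the sources used here. The study states the reads per sample only as a range over all samples, so the depth of each library was estimated in relative terms, and no count model was used. Of the entries per library, 4 with a repeated symbol were left out.

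The genotypes were compared with limma 3.58.1 in R 4.3.3 (lmFit, eBayes with trend) on log2(FPKM + 1) over all 10949 genes with a mean of at least 1 FPKM in either genotype, with Benjamini-Hochberg adjustment. This scale understates the change of low genes. Simulated data with known changes were used to check the fit. The members and gene lists were chosen with earlier results of these data known. Named members are the 5 highest and 5 lowest, the 5 largest rises and falls, the 3 most variable between replicates, rows listed at 0, the paralog families, the stalk proteins and Rpsa; of the other lists, genes past the thresholds or the 2 with the smallest p. Rpl5, Rpl11, Rpl19, Rpl21, Rpl30, Rpl37, Rpl38, Rpl41, Rps3, Rps6, Rps10, Rps15a, Rps19, Rps19-ps3 and Rps21 were named after their values were seen. Coding lengths and positions came from GENCODE M1 (mm9), in which Rpl41 was not matched, and copies were found with blastn 2.17.0. Alternatives covered the pseudocount, filter, scaling, replicate block, variance estimation, thresholds and each library left out. Some genes of the marker and translation lists are not reported here.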

Additional observations from a re-analysis of the deposited data

How the results depend on the processing

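The number of members past both thresholds was 0 in every alternative except without Ets1-/- replicate 2, where it was 1 (Rps15a-ps6, log2 fold change 3.22, adjusted p = 0.0152 by limma with Benjamini-Hochberg adjustment), so the range with 1 library left out was 0 to 1. The number at an unadjusted p under 0.05 was 1 with no filter (12.8% of all genes tested in that fit), 1 with quantile normalization (13.4%) and, with 1 library left out, 0 without WT replicate 1 (7.25%), 24 without WT replicate 2 (8.23%), 1 without Ets1-/- replicate 1 (24.8%) and 2 without Ets1-/- replicate 2 (18.4%). In a fit without a library, the spread of a gene within genotype comes only from the other genotype. The median absolute log2 difference of the tested members was 0.36 between the WT libraries and 0.12 between the Ets1-/- libraries. The counts with 1 library left out are therefore not comparable with the others. The median log2 fold change of the members was 0.095 under quantile normalization and 0.18 to 0.52 with 1 library left out, and that of large-subunit members was 0.095 and 0.18 to 0.51. With 1 library left out, the count of members with the remaining Ets1-/- libraries above the remaining WT libraries ran from 57 to 80. It was 57 without WT replicate 1 (27.1% of all tested genes) and 80 without WT replicate 2 (29.8%). Without Ets1-/- replicate 1 it was 60 (41.4%), and without Ets1-/- replicate 2 it was 76 (36.7%). Over all genes, 186 passed, and 90 did with a pseudocount of 5, 75 with no filter, 106 with a mean of at least 5 FPKM and 305 with robust variance estimation. The causes were not tested.

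With the 10 highest other genes out of the denominator, the members' share was 26.1%, 30.7%, 32.9% and 32.2%, and without -ps symbols it was 27.3% and 28.01% in the Ets1-/- libraries. Of 28 tested named members, 16 kept their direction in every alternative. With single libraries left out, the log2 fold change turned sign for 12 of these 28. It ran from -0.36 to 0.11 for Rpl13a, -0.098 to 0.45 for Rpl22, -0.44 to 0.30 for Rpl26, -0.023 to 0.75 for Rpl34, -0.010 to 0.48 for Rpl36al, -0.44 to 0.79 for Rps15a-ps4, -0.39 to 3.22 for Rps15a-ps6, -0.27 to 0.19 for Rps19bp1, -1.05 to 1.92 for Rps27, -0.028 to 0.27 for Rps27l, -0.14 to 0.77 for Rps29 and -0.40 to 0.21 for Rps4y2. Under quantile normalization Rps29 turned to -0.089.

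The libraries share only replicate numbers. Deviations of same-numbered libraries correlated at -0.21, which does not pair them. With the replicate block 266 genes and 0 members passed, and 1 member reached an unadjusted p under 0.05 (10.9% of all genes). The crossed replicate block, chosen after seeing the data, gave 409 genes and 0 members past both thresholds, with 3 members (and 19.1% of all genes) at an unadjusted p under 0.05. Fits without a library leave 1 sample in a genotype, which is assumed to vary like the other genotype. With 2 libraries per genotype, the 95% confidence intervals of 46 of the 87 tested members reached a log2 fold change of 1, so these libraries do not exclude a 2-fold difference for them.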
